A study of Mus musculus with 25 samples.

Results

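The intercalated disc is the end-to-end contact between cardiac myocytes, and 10 genes of its junctions were examined in cultured neonatal mouse cardiac myocytes: Gja1, Gja5, Cdh2, Jup, Pkp2, Dsp, Dsg2, Dsc2, Ctnna3 and Tjp1. The members were named as structural genes of the disc, and for each the probe set annotated to that gene alone was taken. All 10 were on the array, each with 1 such probe set, among 35557 probe sets in all and 19938 genes with 1 probe set kept for each. RNA came from wild type (WT) cultures and from cultures of transgenic (TG) mice, in which the mlc2v promoter, active in ventricular myocytes, drives overexpression of the transcriptional repressor CHF1/Hey2 in the myocardium. Myocytes were kept in serum-free medium, or exposed to 20% fetal bovine serum, which induces hypertrophy, and RNA was taken after 24 hours. There were 5 WT and 6 TG cultures without serum and 7 WT and 7 TG cultures with serum, 1 array for each. The methods call the cultures independent, but do not say whether they came from separate litters, so p-values measure the spread between these cultures. The comparison of TG with WT asks whether CHF1/Hey2 overexpression altered a gene's transcripts with or without the hypertrophic stimulus.

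The disc joins myocytes both electrically and mechanically. Gap junction channels, built of connexins, pass current and small molecules between cells. Adherens junctions anchor the thin filaments of the sarcomere through cadherins and catenins, and desmosomes anchor the desmin intermediate filaments through desmosomal cadherins, armadillo proteins and desmoplakin. In newborn myocytes the junctions are still spread over the cell border and gather at the cell ends as the heart matures, and inherited defects of the desmosomal genes are a known cause of arrhythmogenic cardiomyopathy.

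The upstream sequences of 4 members are shown because these genes bound the range of behaviour between cultures: Gja1 and Ctnna3 followed the cardiac myocyte markers closely, whereas Tjp1 varied little and Gja5 varied apart from those markers. Each sequence is a RefSeq window of 250 bases before to 50 bases after a transcript start on GRCm38.p6, which was given for 6 of the 10 members. The windows lie at chr10:56377050-56377349 on the plus strand for Gja1, chr10:63429848-63430147 on the plus strand for Ctnna3 (the one of 3 windows that lies at the gene's outermost start), chr3:97032152-97032451 on the plus strand for Gja5 and chr7:65371195-65371494 on the minus strand for Tjp1, inside the annotated gene rather than at its outer end. Capitals mark a match to CACGNG, an E-box form that includes sequences bound by Hairy-related repressors.
Gja1: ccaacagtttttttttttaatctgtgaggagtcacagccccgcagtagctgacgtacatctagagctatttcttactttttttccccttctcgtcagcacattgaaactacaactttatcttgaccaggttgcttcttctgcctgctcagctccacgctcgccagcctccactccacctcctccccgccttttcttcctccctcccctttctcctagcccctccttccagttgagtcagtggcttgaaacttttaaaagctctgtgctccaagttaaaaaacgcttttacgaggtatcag
Ctnna3: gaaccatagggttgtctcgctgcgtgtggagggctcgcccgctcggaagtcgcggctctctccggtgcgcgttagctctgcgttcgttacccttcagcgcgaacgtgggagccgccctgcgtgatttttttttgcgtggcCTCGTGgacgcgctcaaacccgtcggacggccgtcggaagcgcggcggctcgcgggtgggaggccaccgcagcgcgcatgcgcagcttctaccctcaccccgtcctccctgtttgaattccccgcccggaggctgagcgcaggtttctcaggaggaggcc
Gja5: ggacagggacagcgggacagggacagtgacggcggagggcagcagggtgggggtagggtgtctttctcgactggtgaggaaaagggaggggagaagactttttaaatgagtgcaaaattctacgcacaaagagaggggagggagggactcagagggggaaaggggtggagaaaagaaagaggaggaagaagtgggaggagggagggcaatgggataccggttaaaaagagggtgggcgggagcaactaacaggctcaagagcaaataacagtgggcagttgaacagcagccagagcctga
Tjp1: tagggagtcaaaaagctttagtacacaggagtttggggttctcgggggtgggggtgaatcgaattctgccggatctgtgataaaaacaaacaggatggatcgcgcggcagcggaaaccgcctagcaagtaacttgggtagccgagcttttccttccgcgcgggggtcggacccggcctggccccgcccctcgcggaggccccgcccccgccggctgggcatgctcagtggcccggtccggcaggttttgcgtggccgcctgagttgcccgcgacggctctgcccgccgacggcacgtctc
The single match in these windows was CTCGTG in Ctnna3, at position -110 from its start, which is CACGNG read on the other strand. CACGNG was found on either strand in 27.5% of 32851 promoters of the same length. The T-box half-site AGGTGT was found in 13.7% of them and the MEF2 motif in 3.19%, and none of the 4 windows shown held either. The Jup window held 1 AGGTGT, and the Dsp window held 1 CACGNG and 2 AGGTGT. The windows differed in base composition, with 8 CpG sites for Gja1 and 7 for Gja5 against 39 for Ctnna3 and 31 for Tjp1. A match describes the letters of the window and no binding was measured here.

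Values are the deposited log2 RMA values, and a difference of 1 on that scale is a doubling. The median of an array was between 4.99 and 5.09 in the set without serum and between 5.21 and 5.36 in the other, and the SD over its probe sets was 2.10 to 2.14 and 2.54 to 2.60. Since these scales differ, TG was compared with WT within each set, and serum mainly through the position of a probe set within its array. Comparisons of log2 values across the sets are named as such where given. Hey2, the overexpressed gene, was 6.23 ± 0.11 (SD, 5 cultures) in WT and 7.81 ± 0.62 in TG myocytes without serum, and 6.89 ± 0.25 and 8.71 ± 0.53 with serum, and every TG culture lay above every WT culture of its set. In limma the Hey2 difference was 1.58 (SE 0.26, unadjusted p = 6.47e-05, adjusted p = 0.853) without serum and 1.81 (SE 0.20, adjusted p = 0.00972) with serum. Without serum the adjusted test thus did not call even the overexpressed gene. Adjustment was over all 35557 probe sets, of which 0 passed without serum and 3 with serum (2006 and 3803 had an unadjusted p under 0.05). The labelled cell type was checked with 20 cardiac myocyte markers, whose mean positions lay at the 86.4 to 99.97 percentile of the arrays without serum and the 88.5 to 99.97 percentile with serum. Fibroblast markers were also bright, with 15 genes at a median percentile of 83.9 and 87.7, and endothelial markers lower, with 15 genes at 46.9 and 56.7. The position of a marker does not measure the share of cells, and the paper reports high myocyte purity of each preparation by staining for sarcomeric myosin.

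Connexin 43, the product of Gja1, is the main channel of the ventricular disc. Without serum, Gja1 was 11.04, 9.94, 10.94, 11.26 and 11.15 in the 5 WT cultures, and from 9.93 to 11.64 with a median of 11.44 in the TG cultures. With serum it ran from 10.77 to 12.09 (median 11.65) in WT and from 11.01 to 12.33 (median 12.10) in TG myocytes. The groups overlapped in both sets, and the low values belonged to single cultures: WT replicate 2 and TG replicates 4 and 5 without serum, and WT replicates 3 and 4 and TG replicate 6 with serum. The difference of TG from WT was 0.20 (SE 0.34) without serum and 0.34 (SE 0.24) with serum, with adjusted p = 0.947 and 0.628 in limma.

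Gja5 encodes connexin 40, the channel of atrial and conduction system myocytes. It was 7.32, 7.08, 7.29, 6.83 and 7.48 in WT cultures without serum and 6.48 to 7.82 (median 7.00) in TG. With serum it was 6.86 to 7.80 (median 7.48) in WT and 7.29 to 8.20 (median 7.59) in TG, with TG replicates 2 and 3 at 8.09 and 8.20 above every WT culture. The lowest WT cultures for Gja5, replicate 4 without serum and replicate 6 with serum, were the highest WT cultures for Gja1, whereas TG replicate 5 without serum was the lowest TG culture for both. The TG difference was -0.037 (SE 0.23) without serum and 0.33 (SE 0.17, 95% confidence interval -0.023 to 0.69, adjusted p = 0.497) with serum.

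Of the adherens junction genes, Ctnna3, encoding alpha-T-catenin, which links cadherin to the cytoskeleton and to plakophilin 2, had the largest member difference with serum. It was 5.62 to 6.92 (median 6.47) in WT and 5.78 to 7.60 (median 7.30) in TG cultures with serum. Although 6 of 7 TG cultures were above the WT mean, TG replicate 6 at 5.78 lay among the lowest WT cultures, and the groups overlapped. The difference was 0.68 (SE 0.29, 95% confidence interval 0.057 to 1.31), a ratio of 1.60, and limma gave an unadjusted p of 0.0346 and an adjusted p of 0.430. Without serum Ctnna3 was 6.70, 5.55, 6.80, 7.09 and 6.69 in WT and 5.52 to 7.61 (median 7.02) in TG cultures, a difference of 0.15 (SE 0.38, adjusted p = 0.963). The sign of that smaller difference turned to -0.10 without WT replicate 2, so it rested on that culture.

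Cdh2 encodes N-cadherin, the classical cadherin of the disc. It was 9.86, 8.72, 9.65, 9.95 and 9.91 in WT and 8.85 to 10.55 (median 10.11) in TG cultures without serum. With serum it was 10.26 to 10.85 (median 10.58) in WT and 10.24 to 11.10 (median 10.92) in TG cultures. The same WT culture was low as for Ctnna3 and Gja1, and the groups again overlapped, with differences of 0.25 (SE 0.34, adjusted p = 0.941) and 0.24 (SE 0.14, adjusted p = 0.543). Leaving out 1 culture moved the difference without serum between 0.030 (without WT replicate 2) and 0.46 (without TG replicate 5).

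Pkp2 encodes plakophilin 2, which gathers desmosomal proteins at the plaque. It was 9.56, 8.37, 9.40, 9.80 and 9.60 in WT and 8.54 to 10.34 (median 10.01) in TG cultures without serum. With serum it was 9.71 to 10.58 (median 10.37) in WT and 9.94 to 10.94 (median 10.78) in TG cultures. Here too WT replicate 2 and TG replicates 4 and 5 without serum stood below the other cultures. The differences were 0.30 (SE 0.37, adjusted p = 0.936) and 0.35 (SE 0.17, 95% confidence interval -0.022 to 0.72, adjusted p = 0.494). Leaving out 1 culture moved the difference without serum between 0.051 (without WT replicate 2) and 0.52 (without TG replicate 5).

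The desmosomal cadherins Dsg2 (desmoglein 2) and Dsc2 (desmocollin 2) bind across the cell gap. Dsg2 was 7.29 to 7.70 (median 7.55) in WT and 7.54 to 7.82 (median 7.66) in TG cultures with serum. All 7 TG cultures exceeded the WT mean but stayed within the range that WT cultures reached, except for TG replicates 2 and 3. The difference was 0.15 (SE 0.069, unadjusted p = 0.0484, adjusted p = 0.463), the smallest spread of any member with serum lying behind it. Dsc2 was 7.68 to 8.30 (median 8.07) in WT and 7.86 to 8.28 (median 8.19) in TG cultures with serum, a difference of 0.14 (SE 0.096, adjusted p = 0.633). Without serum Dsg2 was 7.39 to 7.60 in WT and 7.40 to 7.77 in TG cultures, and Dsc2 was 7.69 to 8.06 and 7.83 to 8.12, with differences of 0.072 (SE 0.075) and 0.087 (SE 0.078).

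Jup and Dsp encode plakoglobin, shared by desmosomes and adherens junctions, and desmoplakin, which ties the plaque to desmin. Without serum Jup was 9.98 to 10.38 in WT and 9.88 to 10.49 in TG cultures, and with serum 10.57 to 11.01 and 10.53 to 11.12, a difference of 0.11 in both sets (SE 0.11 and 0.095). Dsp ran from 10.48 to 11.18 in WT and 10.41 to 11.05 in TG cultures without serum, and from 10.45 to 11.16 and 10.51 to 11.07 with serum. Its differences of 0.028 (SE 0.14) and 0.096 (SE 0.12) were smaller than the spread between cultures, and the first turned to -0.012 when the arrays were quantile normalized again. Tjp1 encodes ZO-1, the scaffold that binds the tail of connexin 43 and borders the gap junction plaque. It was 9.0 to 9.39 in WT and 9.24 to 9.41 in TG cultures without serum, and all 6 TG cultures exceeded the WT mean. TG replicates 1, 5 and 6 and WT replicate 1 without serum had an identical Tjp1 value, 9.25707, and the reason was not tested. Serum cultures gave 9.46 to 9.81 in WT and 9.42 to 9.71 in TG cultures. The Tjp1 difference was 0.10 (SE 0.067, adjusted p = 0.894) without serum and -0.0033 (SE 0.071, adjusted p = 0.992) with serum, where its sign turned to 0.046 with each array centred on its median.

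**Figure D1:**
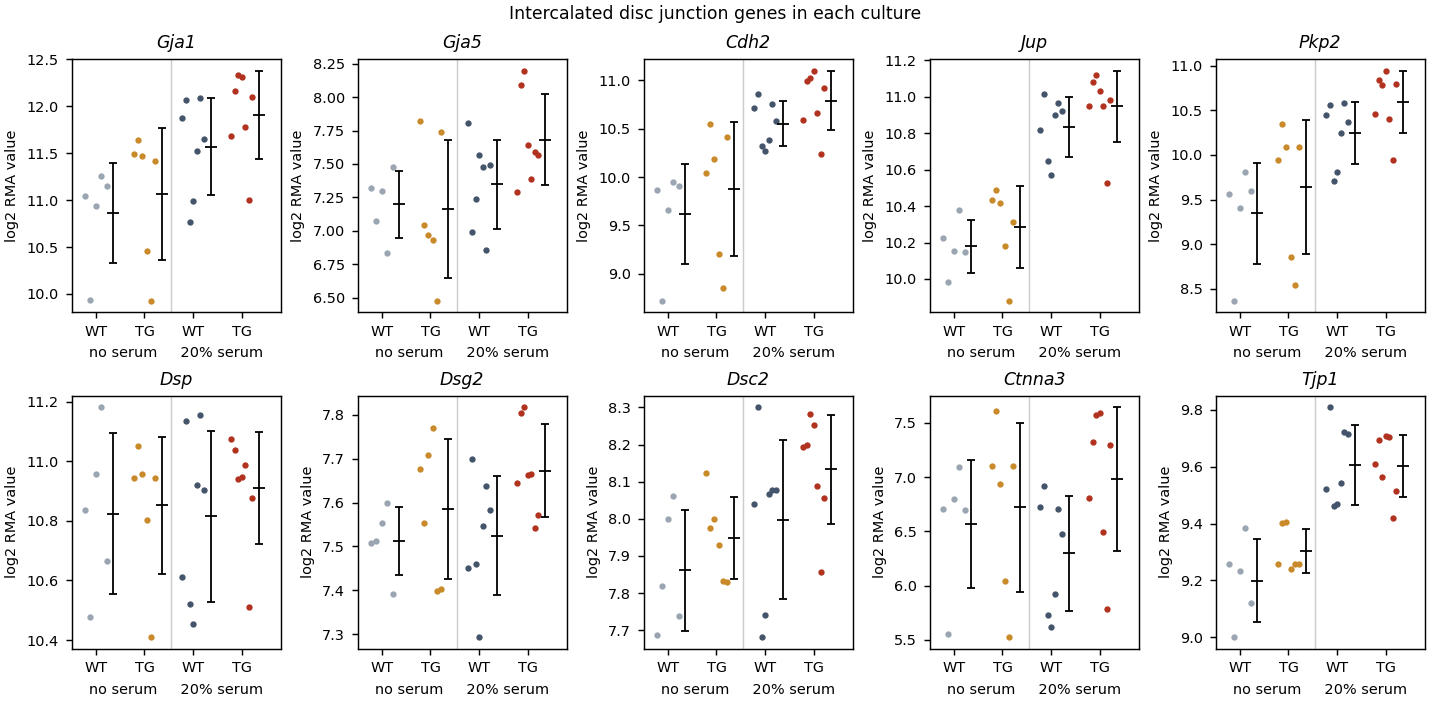
Log2 RMA value of each junction gene (vertical axis, a scale of its own for each gene) in every culture, by genotype and serum, with the group mean and SD as bars. WT and TG cultures overlap in every panel, and for Gja1, Cdh2, Pkp2 and Ctnna3 the same WT culture and the same 2 TG cultures without serum lie far below the rest.

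Set against all genes, no junction gene passed the adjusted test of TG against WT in either set. Without serum 0 of the 10 were called, where 0% of the 19938 genes were, and 0 had an unadjusted p under 0.05 (1.84% of genes did so as higher in TG and 2.56% as lower). With serum 0 of 10 were called, where 0.00502% of genes were. Ctnna3 and Dsg2, 2 of 10, had an unadjusted p under 0.05 as higher in TG, a direction in which 5.15% of genes did, and 0 of 10 as lower, where 6.32% did. The differences of 9 members were above 0 in each set, with Gja5 the exception without serum and Tjp1 with serum. The members were not independent of each other, since Gja1, Cdh2, Pkp2 and Ctnna3 varied together between cultures. The median over the members was 0.11 without serum and 0.19 with serum, beside -0.0083 and -0.016 over all genes, of which 45.2% and 44.6% were above 0. The difference between the TG effects with and without serum was 0.53 for Ctnna3 (95% confidence interval -0.48 to 1.54) and 0.37 for Gja5 (95% confidence interval -0.22 to 0.96), and had an adjusted p of 0.9997 for every member in limma. The intervals for Gja1, from -0.56 to 0.96 without serum and from -0.17 to 0.86 with serum, show how wide a difference these cultures leave possible.

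**Figure D2:**
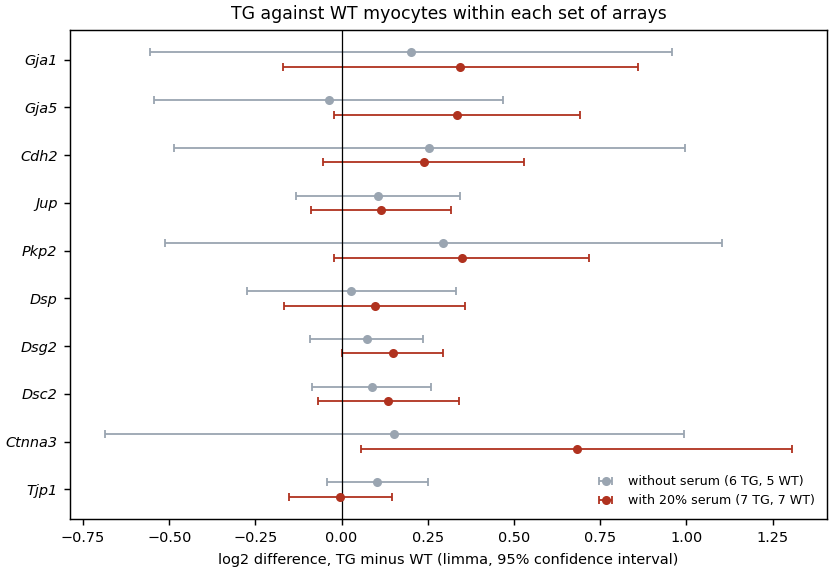
Difference of TG from WT myocytes (log2, horizontal axis) for each junction gene with its 95% confidence interval from limma, without serum (grey) and with serum (red). Only the serum intervals of Ctnna3 and Dsg2 lie above 0, at 0.68 and 0.15, and neither gene passed the adjusted test.

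Markers of cardiac myocytes had differences in the same direction as the members. All 20 myocyte markers had a TG difference above 0 with serum, with a median of 0.39, and 18 of 20 without serum, with a median of 0.15. Of all genes 44.6% were above 0 with serum and 45.2% without. With serum Cox6a2 (a muscle cytochrome oxidase subunit) was 0.46 higher, Myl3 (a myosin light chain) 0.57 and Ckm (muscle creatine kinase) 0.75. These were the 3 markers with an unadjusted p under 0.05, past which 5.15% of all genes were higher, and 0 passed the adjusted test. The mean of the 20 markers, centred on 0 within each set, ran from -0.75 to 0.25 in WT and from -0.63 to 0.52 in TG cultures with serum, and from -0.79 to 0.24 and -0.86 to 0.55 without serum. With the marker mean as a covariate, an alternative added after the data were seen, the serum difference of Ctnna3 was 0.18, of Pkp2 0.049, of Cdh2 0.013 and of Gja1 -0.076, whereas that of Gja5 was 0.32 and that of Dsg2 0.075. Then 0 members had an unadjusted p under 0.05, and the share of all genes was not computed for that fit. This fit cannot show the part of the marker level in the TG differences, because the markers themselves had TG differences in the same direction. That part was not tested, and fewer myocytes and less RNA per myocyte cannot be told apart in whole cultures.

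With serum, 3 of the 6 lists of other cell markers had a median TG difference below 0 and 3 above it. Over all genes the median was -0.016, and 5.15% were higher and 6.32% lower at an unadjusted p under 0.05. Of 15 endothelial markers 0 were higher and 3 lower in TG cultures at an unadjusted p under 0.05, with a median difference of -0.20, among them Erg at -0.34. Of 16 epicardial and epithelial markers 0 were higher and 5 lower, with a median of -0.16, among them Lrrn4 at -0.72 and Upk1b at -0.81. The 15 fibroblast markers had none past that p and a median of -0.089, and their mean ran from -0.54 to 0.44 in WT and -0.28 to 0.34 in TG cultures. Of 13 atrial and conduction markers, with a median of 0.039, Irx3 was 0.56 higher and Shox2, dim at a mean percentile of 32.4, was -0.26. The 8 smooth muscle markers had a median of 0.063 with 6 above 0, the 10 macrophage markers a median of 0.15 with 7 above 0, and none of either passed that p. Over all these lists 0 genes passed the adjusted test. Without serum 1 of 15 endothelial markers, Kdr at -0.19 and a mean percentile of 40.7, passed the unadjusted p, where 2.56% of all genes did as lower.

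The junction genes differed widely in how much they varied between cultures of one group. The pooled SD of Ctnna3 was 0.70 without serum and 0.60 with serum, larger than that of 99.6% of genes in each set. Gja1 had an SD of 0.63 and 0.49 (above 99.4% and 99.0% of genes), Pkp2 0.67 and 0.35 (99.5% and 95.9%), Cdh2 0.62 and 0.27 (99.3% and 90.5%) and Gja5 0.42 and 0.34 (97.2% and 95.3%). The desmosomal cadherins and ZO-1 were steady beside these. Dsg2 had an SD of 0.13 and 0.12 (above 64.2% and 26.7% of genes), Tjp1 0.11 and 0.13 (55.2% and 29.4%) and Dsc2 0.14 and 0.18 (67.6% and 65.9%). The Tjp1 SD without serum includes cultures with identical values. Jup, at 0.19 and 0.18, and Dsp, at 0.25 and 0.24, lay between.

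Between cultures of one genotype, 6 members rose and fell with the cardiac myocyte markers in both sets. With genotype means subtracted, Gja1 correlated with the marker mean at r = 0.997 without serum (Spearman rho 0.964, permutation p = 9e-05) and r = 0.986 with serum (rho 0.987, permutation p = 1.00e-05, the smallest the permutations can give). Pkp2 had r = 0.991 in both sets, rho of 0.945 and 0.943, with permutation p of 1.20e-04 and 1.00e-05. Ctnna3 had r = 0.982 and 0.969 (rho 0.864 and 0.965, permutation p = 4.40e-04 and 1.00e-05). For these genes the relation held in each genotype alone, where r was 0.959 to 0.998, and without the 2 cultures farthest from the median marker level, where r was 0.949 to 0.995. Cdh2 had r = 0.982 and 0.954 (rho 0.882 and 0.938, permutation p = 1.90e-04 and 1.00e-05), Jup 0.941 and 0.920 (rho 0.955 and 0.837, permutation p = 0.0001 and 4.10e-04) and Dsp 0.861 and 0.760 (rho 0.809 and 0.587, permutation p = 9.10e-04 and 0.00541). Dsp fell to r = 0.510 and 0.590 without the 2 farthest cultures, so its relation rests in part on those cultures. In all, 20 such relations were computed.

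The slope of the other 4 members on the marker mean did not pass the adjusted test in at least 1 set. Gja5 had r = 0.536 without serum (rho 0.245, permutation p = 0.125) and 0.061 with serum (rho -0.011, permutation p = 0.840), and with serum its r was -0.320 in WT and 0.438 in TG cultures alone. Dsg2 had r = 0.165 and 0.695 (rho 0.227 and 0.666, permutation p = 0.692 and 0.00759), the former turning to -0.448 without the 2 farthest cultures. Dsc2 had r = 0.345 and 0.881 (rho 0.409 and 0.829, permutation p = 0.301 and 4.10e-04), and Tjp1 0.645 and 0.689 (rho 0.725 and 0.719, permutation p = 0.0168 and 0.0110). Without the 2 farthest cultures Tjp1 had r = 0.514 and 0.530, close to the values of Dsp.

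The slopes show the scale of this covariation. Per unit of the marker mean, Gja1 changed by 1.27 without serum and 1.18 with serum, Ctnna3 by 1.38 and 1.41 and Pkp2 by 1.34 and 0.84, whereas Jup changed by 0.37 and 0.40. In limma, adjusted over all probe sets, 6 members had a positive slope without serum, where 7.42% of genes did, and 7 with serum, where 9.33% did, Dsc2 being added there. None had a negative slope, where 8.18% and 10.9% of genes did. The marker mean without serum was lowest in WT replicate 2 and TG replicate 5, at -0.79 and -0.86, TG replicate 4 lay between at -0.39, and the other 8 cultures lay between -0.0059 and 0.55. Within those 8 cultures r was 0.957 for Pkp2, 0.913 for Gja1, 0.832 for Jup, 0.803 for Ctnna3, 0.736 for Cdh2 and 0.523 for Dsp, 0 members were called by limma, and the Gja5 r was -0.675. With serum, without WT replicates 3 and 4 and TG replicate 6, whose marker means were -0.75, -0.71 and -0.63, 4 members stayed called: Gja1, Cdh2, Pkp2 and Ctnna3, at r of 0.951, 0.955, 0.963 and 0.967. Hey2 itself was lowest among TG cultures in replicates 4 and 5 without serum (7.08 in both) and replicate 6 with serum (7.94), the cultures that were also low in myocyte markers.

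**Figure D3:**
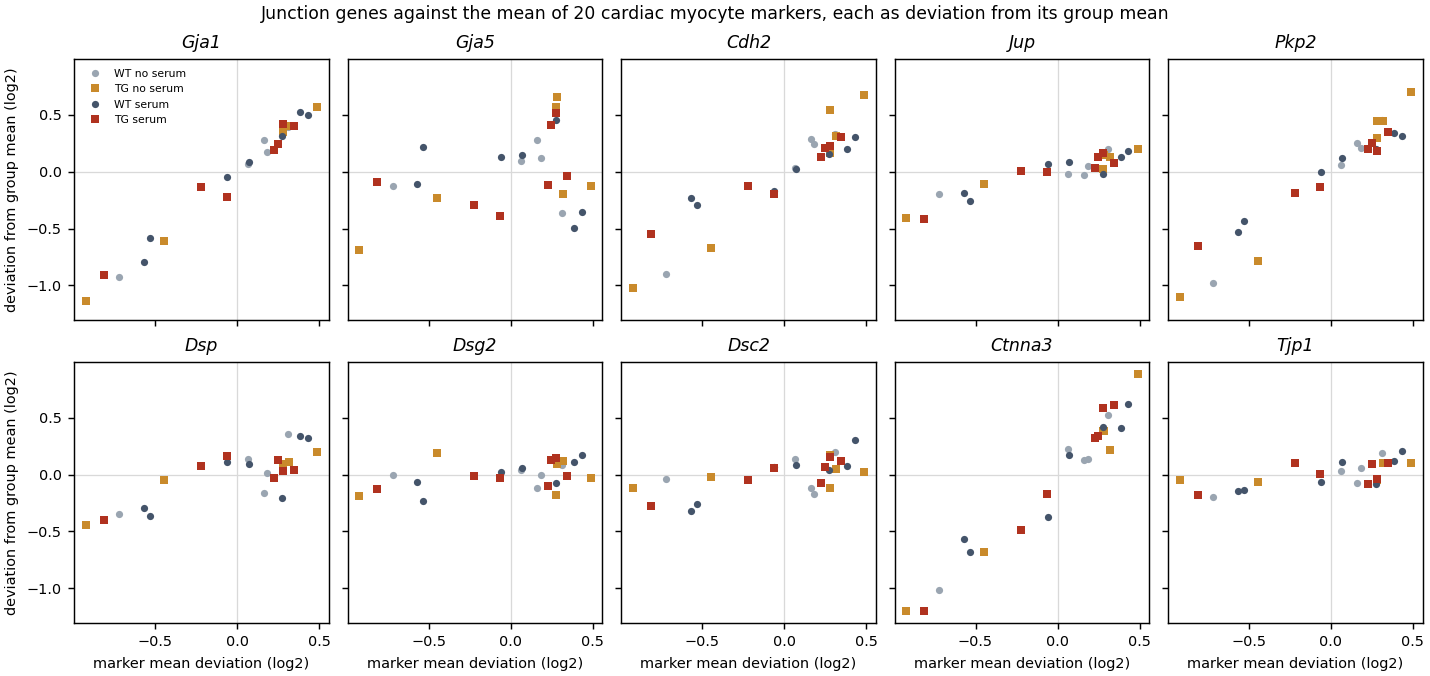
Deviation of each junction gene from its group mean (log2, vertical axis) against the deviation of the mean of 20 cardiac myocyte markers (log2, horizontal axis), 1 point for each culture, with the same axes in all panels. Gja1, Pkp2, Cdh2 and Ctnna3 lie along steep lines, Jup along a shallow one, and Gja5 scatters without a line, with r of 0.536 without serum and 0.061 with serum.

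Among themselves, the 4 steep members varied as a block. The correlation of Gja1 with Pkp2 was 0.991 without serum and 0.985 with serum, of Cdh2 with Ctnna3 0.972 and 0.981, and of Pkp2 with Cdh2 0.992 and 0.946. Gja5 had no such partner: its correlations with the other 9 members ran from -0.230 to 0.555 in the cultures without serum and from -0.380 to 0.149 in the others. The desmosomal cadherins Dsg2 and Dsc2 correlated with each other at 0.624 and 0.809. These values describe 11 and 14 cultures, which share RNA preparation and array with every gene measured in them.

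The genes whose pattern over cultures was most like each member's were found by the mean of the correlations in both sets. For Gja1 they were Asb2, Myom1 and Rcan2 at 0.993, 0.991 and 0.990, and for Pkp2 Myom1, Htra1 and Ehd4 at 0.993, 0.991 and 0.991. Myom1, an M-band protein of the sarcomere, is itself 1 of the 20 myocyte markers. Cdh2 was nearest to Daam1, Svil and Camk2d (0.992, 0.990 and 0.987), and Ctnna3 to Svil, Arhgef7 and Sipa1l2 (0.984, 0.983 and 0.982), so that Svil, which encodes the actin-binding protein supervillin, was shared by both adherens junction genes. The nearest genes of the other 6 members had lower values. Jup was nearest to Abcc8, Eef1a2 and Magi3 (0.969, 0.967 and 0.965), Dsp to Fgf18, Otub2 and Rab11fip5 (0.949, 0.947 and 0.947) and Dsc2 to Etfdh, Nsun4 and Sv2a (0.928, 0.903 and 0.885). Tjp1 was nearest to Cemip2, Mtr and Wbp1l (0.888, 0.886 and 0.877), Dsg2 to Cpt2, Usp2 and Mllt6 (0.866, 0.837 and 0.827) and Gja5 to Dhrs7c, Lrrc75a and Mgll (0.818, 0.784 and 0.761).

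The position of a probe set within its array, as a percentile over all probe sets, was used to set the cultures with serum against those without. In WT cultures 3 members were lower with serum by limma on these positions, where 29.7% of genes were lower, and 0 were higher, where 30.3% of genes were. In TG cultures 4 were lower and 0 higher, where 30.4% and 31.5% of genes were. About as many members as genes in general were therefore called lower, and 7 and 6 members were not called. Serum and any separate processing of the arrays with serum cannot be told apart.

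Of the 5 desmosome members, Dsg2, Dsc2 and Dsp were called lower in both genotypes, and Jup and Pkp2 were called in neither. Dsg2 stood at the 79.1, 79.5, 79.7, 80.2 and 77.9 percentile in WT cultures without serum and at 72.4 to 76.7 (median 75.0) with serum, and these did not overlap. Its change was -4.49 percentile points (SE 0.79, adjusted p = 3.90e-05) in WT and -3.68 (SE 0.75, adjusted p = 1.96e-04) in TG cultures, where it stood at 77.7 to 81.9 (median 80.1) and 74.6 to 77.7 (median 76.0). Dsg2 was thus lower in position with serum in both genotypes, although the TG groups met at 77.7. Dsc2 changed by -3.02 (SE 0.96, adjusted p = 0.0103) in WT and -2.51 (SE 0.92, adjusted p = 0.0217) in TG cultures, and Dsp by -1.21 (SE 0.40, adjusted p = 0.0125) and -0.90 (SE 0.38, adjusted p = 0.0458). Tjp1 was lower in TG cultures by -0.98 points (SE 0.38, adjusted p = 0.0308), with every serum culture below every other, and by -0.54 (SE 0.40, adjusted p = 0.259) in WT cultures. The TG calls of Dsp and Tjp1 lay near the threshold and were lost when any of several single cultures was left out, and that of Dsc2 without TG replicate 1 of the cultures without serum or TG replicate 6 of those with serum.

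For the other 6 members, the change in position was called in neither genotype. Gja1 stood at 97.9 ± 1.2 in WT and 98.1 ± 1.5 in TG cultures without serum and at 98.2 ± 0.98 and 98.7 ± 0.79 with serum, changes of 0.31 (95% confidence interval -1.05 to 1.67) and 0.67 (-0.63 to 1.96). Ctnna3 had the widest intervals, with changes of -6.87 (-15.20 to 1.46) in WT and -1.33 (-9.25 to 6.58) in TG cultures. Gja1 stood near the top of the array, with little room to rise, whereas Ctnna3 had group means of 61.6 to 70.3. Changes and interval widths in points are therefore not comparable between these genes. Gja5 changed by -2.98 (-7.70 to 1.75) and 0.98 (-3.51 to 5.46), and Cdh2 by 1.59 (-0.57 to 3.75) and 1.64 (-0.41 to 3.696). Pkp2 changed by 1.77 (-1.07 to 4.62) and 2.04 (-0.66 to 4.74), and Jup by 0.32 (-0.42 to 1.07) and 0.42 (-0.28 to 1.13). For Cdh2, Jup and Pkp2 the scale mattered, since on log2 values with each array centred on its median they were called higher with serum in both genotypes, by 0.68, 0.41 and 0.65 in WT and 0.69, 0.43 and 0.72 in TG cultures. On that scale Dsp and Dsc2 were called in neither genotype, Dsg2 in WT alone and Tjp1 in neither. Median centring leaves the spread of an array as it was, with an SD of 2.54 to 2.60 with serum and 2.10 to 2.14 without. A wider spread sets bright genes farther above the median, and the mean positions of Cdh2, Jup and Pkp2 were 93.1 to 97.0. The part of that spread in their higher calls was not tested. The share of all genes called higher on the centred scale was not computed. The myocyte markers had a median change of -0.387 points in WT and -0.0029 in TG cultures, with 1 of 20 called, lower in each.

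**Figure D4:**
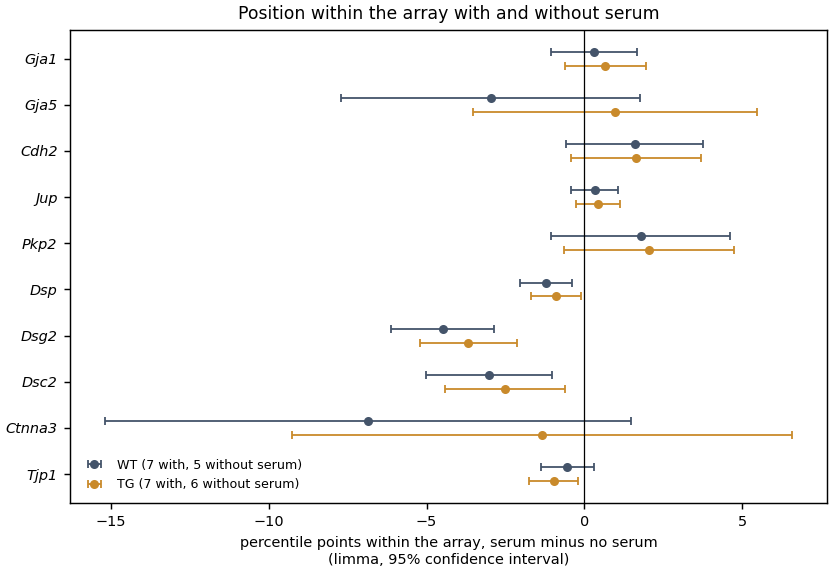
Change in position within the array with serum (percentile points, horizontal axis) for each junction gene with its 95% confidence interval from limma, in WT (blue) and TG (orange) cultures. Dsp, Dsg2 and Dsc2 lie below 0 in both genotypes, with Dsg2 at -4.49 and -3.68, and Ctnna3 has the widest intervals.

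The wider junction machinery was read through lists of 17 other gap junction genes, 13 other desmosome genes, 22 other adherens junction genes, 20 other tight junction and scaffold genes, 13 channel genes of the disc and 16 genes of junction assembly and turnover, and 0 of these genes passed the adjusted test of TG against WT. With serum 5.15% of all genes were higher and 6.32% lower in TG cultures at an unadjusted p under 0.05. At that p Gjc1 (connexin 45) was 0.23 higher and Gjb2, dim at a mean percentile of 28.5, was -0.22. Of the desmosome genes 0 were higher and 3 lower, Dsc3 at -0.42, Ppl at -0.31 and Pkp3 at -0.24, genes known chiefly from epithelia. Dsc3 was dim, at a mean percentile of 25.9. The 2 higher adherens junction genes, Nrap at 0.50 and Xirp2 at 0.87, encode actin-binding proteins of the myocyte disc, and Nectin1 was -0.22. The claudins Cldn3 at -0.22 and Cldn5 at -0.20 were the 2 lower tight junction genes, and these are also on the epithelial and endothelial lists. Among the channel genes, Tmem65 was 0.22 and Fgf13, a modulator of sodium channels, 0.30 higher. Scn4b, dim at a mean percentile of 36.9, was -0.39, whereas Gsk3b of the assembly list was 0.12 higher. The list medians with serum were -0.028 for gap junction, -0.042 for desmosome, 0.0010 for adherens junction, -0.040 for tight junction and scaffold, 0.26 for channel and -0.018 for assembly genes, beside -0.016 over all genes. Without serum 3 of these genes had an unadjusted p under 0.05: Pkp1 at -0.20, Tmem65 at 0.23 and Kcna5, dim at a mean percentile of 19.3, at -0.094. Of all genes 1.84% were higher and 2.56% lower past that p.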

How the data were processed

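The authors hybridized RNA to Affymetrix Mouse Gene 1.0 ST arrays and, per the submitters' processing notes, made expression values with Robust Multichip Analysis (RMA; background correction, quantile normalization and summary of probes) using Expression Console 1.1. The deposited values are on the log2 scale, for 35557 probe sets on 25 arrays. Whether all arrays were normalized in 1 run is not given in the sources used here. Precision is limited by how many arrays there are, as intensities carry no read depth. Probe sets were named through the platform annotation: 21789 had 1 symbol, 1621 several and 12147 were unnamed here, and per gene the one with the highest mean over arrays was kept.

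TG and WT cultures were compared within each serum set with limma 3.58.1 (lmFit, eBayes) in R 4.3.3, two-sided, with Benjamini-Hochberg adjustment over all probe sets and calls at an adjusted p under 0.05. Serum was compared by limma on percentile ranks over 25 arrays. The TG effects with and without serum were compared by limma on log2 values and on ranks. Correlations with the mean of 20 myocyte markers used 100000 permutations within genotype. Named were the members, Hey2, the 3 nearest genes by correlation and the list genes of smallest unadjusted p. Of 210 entries in 13 lists 198 were measured and the others were not analysed here. The members and lists were chosen with earlier results of these data known. The scripts were tested on simulated data. No scan date or hybridization batch is given in the sources used here. Alternatives were 1 fit over all arrays, a mean-variance trend, array weights, median centring, quantile normalization again, dim probe sets left out, a replicate block, other rank scales and leaving out each array. Covariate and marker-based exclusions were added after the data were seen.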

Additional observations from a re-analysis of the deposited data

Results flagged for a closer look

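In 6 of the 40 groups of member values 1 culture lay far from the others, as measured by its gap to the nearest culture over the range of the group, and in all 6 it lay low. Chance gives about 1 such group in 20, and the members are not independent of each other. WT replicate 2 without serum stood apart for 4 genes: Gja1 (9.94, with the next culture at 10.94, a gap of 0.756 of the range), Cdh2 (8.72 and 9.65, 0.758), Pkp2 (8.37 and 9.40, 0.721) and Ctnna3 (5.55 and 6.69, 0.741). TG replicate 6 with serum stood apart for Jup (10.53 and 10.95, 0.7104) and Dsp (10.51 and 10.88, 0.650). The cardiac myocyte marker mean was the lowest of its group in both cultures, at -0.79 and -0.63, and the part of that in these values was not tested.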

How the results depend on the processing

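No member passed the adjusted test of TG against WT under any of the alternatives run. Counts of members with an unadjusted p under 0.05 did move. Shares over all genes were computed for the main fits alone (with serum 5.15% higher and 6.32% lower). Counts under an alternative are therefore no result about the members in particular. With serum the count of 2 became 5 with array weights, 1 after quantile normalization again, 5 with each array centred on its median, 0 with the replicate block and 0 with the marker mean as a covariate. Leaving out 1 culture gave 0 to 6, with 0 without TG replicate 2, 3 or 4 or WT replicate 3, 4 or 5, 1 without TG or WT replicate 7 and 6 without TG replicate 6. Without serum the count of 0 became 5 without the 3 cultures lowest in myocyte markers, an exclusion chosen after the data were seen. That choice narrows the spread of Gja1, Cdh2, Pkp2 and Ctnna3, which follow those markers, so the 5 is no independent test. The count without serum was 0 to 1 when 1 culture was left out (1 without TG replicate 5 or WT replicate 4). Deviations of cultures with like numbers in the deposited labels correlated across genotypes at -0.45 to 0.15 (no serum) and -0.36 to 0.062 (serum). The paper's heat map numbers the cultures without serum differently, so like numbers there need not mark pairs. These correlations and the replicate block therefore cannot show whether cultures without serum were paired. The replicate block also took the TG serum rank calls from 4 to 2 (Dsp and Tjp1 lost). Leaving out 1 culture gave 1 to 4 of those calls, with 2 without TG replicate 1, 2 or 3 of the cultures without serum or TG replicate 3 or 7 of those with serum, and 1 without TG replicate 6 with serum. Of the slopes on the marker mean, 0 stayed called without serum and 4 with serum when the cultures lowest in markers were left out, and 3 with serum in WT alone.

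Signs turned for small differences. Without serum, Dsp became -0.012 after quantile normalization again and -0.027 with the covariate, Ctnna3 -0.025 with the covariate and Gja5 0.16 without the cultures lowest in markers, and leaving out 1 culture gave -0.029 to 0.43 for Gja1, -0.059 to 0.12 for Dsp, -0.10 to 0.39 for Ctnna3 and -0.17 to 0.10 for Gja5. With serum, Tjp1 became 0.026 with array weights and 0.046 with median centring (-0.027 to 0.031 leaving out 1 culture), and with the covariate Gja1 became -0.076, Jup -0.029, Dsp -0.064 and Dsc2 -0.0047. On median-centred log2 values the serum change of Tjp1 became 0.16 in WT and 0.070 in TG and that of Ctnna3 0.031 in TG cultures. The rank change of Gja5 in TG became -1.40 without the cultures lowest in markers, and leaving out 1 culture gave -0.20 to 0.59 for Gja1 in WT, and -0.55 to 2.34 for Gja5 and -4.02 to 0.71 for Ctnna3 in TG cultures. The serum effect on the Cdh2 difference became 0.055 percentile points. The r of Dsg2 without serum became -0.448 without the 2 farthest cultures, and that of Gja5 -0.675 without the cultures lowest in markers and, with serum, -0.320 in WT alone. The causes were not tested. Averaging the probe sets of a gene was not run, since each member had 1.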
